A study of Mus musculus with 10 samples.

Results

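The 10 genes described here are the Fos and Jun families of AP-1 subunits (Fos, Fosb, Fosl1, Fosl2, Jun, Junb and Jund) with 3 other immediate early genes, Egr1, Egr2 and Ier2. They were chosen by name, as the rows of the count and RPKM tables whose Ensembl identifier carries one of these symbols, and they are 10 of 40620 genes in the count table. All 10 were detected, with 104 to 25623 counts per sample, and all 10 passed the filter on low counts. RNA was sequenced from MC3T3-E1 cells, a clonal pre-osteoblast line derived from mouse calvaria, at 5 stages with 2 replicates each, named A and B. Subconfluent cells were in growth medium (αMEM with 10% iFBS), and confluent cells marked day 0 of differentiation. The later cultures were kept for 24 h, 14 d and 21 d in the same base medium with penicillin-streptomycin, β-glycerophosphate at 10 mM and ascorbic acid at 50 µg/ml. No stage had a parallel culture without osteogenic medium, so time in culture and the medium cannot be told apart. The paper gives only a range of days between medium changes, without the time from the last change to harvest. The part of that time in the levels below was not tested. Nothing states that replicates came from separate cultures, so the p-values measure the spread between these samples.

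AP-1 is a dimer of basic leucine zipper proteins. Jun proteins pair with each other or with a Fos protein, whereas Fos proteins need a Jun partner, and the dimers bind the sequence TGACTCA. Fos, Fosb, Jun, Junb, Egr1, Egr2 and Ier2 are classical immediate early genes, which are transcribed within minutes of a signal without new protein synthesis. Egr1 and Egr2 encode zinc finger transcription factors, and Ier2 encodes a small nuclear protein. In bone, mice lacking Fos have no osteoclasts, whereas Fosl1 and Fosl2 act in osteoblasts and matrix production. Jund is the family member that many cells express without a stimulus.

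Sequence elements upstream of immediate early genes are shown first, since they are the textbook entry points of the signals that these genes answer. RefSeq promoter windows were found for 7 of the 10 genes, and Egr1, Fosl1 and Ier2 had none. The 250 bases before each start were searched on both strands for the CArG box bound by serum response factor, for the AP-1 site TGACTCA, for the variant site TGACNTCA, for the core of the cAMP response element TGACGT, and for TATAAA. Below are the 150 bases before the start of 3 genes, 5′ to 3′ on the strand of the gene, with matches in capitals. For Egr2, which has several windows, the one shown was picked among those that hold a CArG box. They lie on GRCm38.p6 at chr12:85473740-85473889 (Fos, plus strand), chr10:67537720-67537869 (Egr2, plus strand) and chr4:95052223-95052372 (Jun, minus strand).
Fos: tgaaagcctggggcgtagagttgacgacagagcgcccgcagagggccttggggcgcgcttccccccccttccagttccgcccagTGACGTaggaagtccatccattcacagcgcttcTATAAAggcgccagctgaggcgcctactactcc
Egr2: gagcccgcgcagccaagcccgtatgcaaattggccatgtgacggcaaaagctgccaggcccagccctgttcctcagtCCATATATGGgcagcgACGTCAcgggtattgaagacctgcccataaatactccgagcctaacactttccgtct
Jun: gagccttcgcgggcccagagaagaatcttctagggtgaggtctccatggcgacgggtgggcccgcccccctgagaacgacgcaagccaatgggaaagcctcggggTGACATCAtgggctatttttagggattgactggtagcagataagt

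In the Fos window the capitals mark TGACGT, 66 bases before the start, and TATAAA, 33 bases before it. In Egr2 they mark a CArG box 73 bases before the start and, on the reverse strand, TGACGT 57 bases before it. Egr2 has several annotated starts, and 4 of its windows hold a CArG box, though not all the same one. In the window of the start at chr10:67537566 the box lies 72 bases before that start, upstream of the stretch shown. The window of the start at chr10:67535499 holds none of the 5 motifs. In Jun they mark the variant AP-1 site TGACNTCA, 45 bases before the start. A sequence can match both TGACGT and TGACNTCA, which overlap. Of all 32851 promoter windows, 1.47% held a CArG box, 4.46% TGACTCA, 7.49% TGACNTCA, 6.47% TGACGT and 12.4% TATAAA. The windows of Fosb, Fosl2, Junb and Jund held none of the 5 motifs, and those of Fos and Jun held no CArG box. That says only that these letters are not in the 250 bases searched. Sites further upstream were not looked for in any gene. For Jund, the RefSeq start lies upstream of the gene's start in GENCODE. A match is a description of the sequence, and no binding was measured here.

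Each sample had between 44736156 and 162939333 counts in all. Of the osteoblast markers, all 8 exceeded 1 RPKM in some sample. Ibsp, the bone sialoprotein gene, rose from 15.9 ± 5.81 RPKM in subconfluent cells to 2540 ± 42.8 RPKM at 21 d (SD, n = 2, log2 7.43, adjusted p = 3.8e-06). In that comparison 5 of the 8 rose and 0 fell (16.3% and 11.3% of all genes). From 14 d to 21 d 1 of the 8 rose and 2 fell (1.52% and 2.45% of all genes), with a median log2 of -0.82. Those that fell were Alpl (log2 -1.47, adjusted p = 0.00064) and Col1a1 (adjusted p = 0.026). Ibsp averaged 4227 RPKM at 14 d, above its level at 21 d. Adipocyte markers summed to 0.0615 to 1.10 RPKM and endothelial markers to at most 0.107 RPKM. Of the myoblast markers only Acta1 exceeded 1 RPKM, and of the chondrocyte markers Col2a1 and Sox9 did, with Acan and Matn1 under 0.2 RPKM in every sample. Col9a1 had at most 0.00503 RPKM up to 24 h, 0.451 and 0.584 RPKM at 14 d, and 0.125 and 0.129 RPKM at 21 d. The 3 chondrocyte markers tested all rose from 24 h to 14 d (4.47% of all genes), and 2 fell from 14 d to 21 d (2.45% of all genes). Col2a1 fell at confluence (log2 -1.03), rose from 24 h to 14 d (log2 2.54) and fell from 14 d to 21 d (log2 -1.52), Sox9 rose from 24 h to 14 d (log2 1.18), and Acta1 fell from subconfluent cells to 21 d (log2 -1.48). Their part in the results below was not tested. The leukocyte markers Ptprc and Adgre1 were at or near 0, Csf1r was at 1.83 to 3.19 RPKM and Cd68 at 0.464 to 0.936 RPKM. Tyrobp reached 179 RPKM in confluent replicate B, 214 RPKM in 14 d replicate B and 256 RPKM in 21 d replicate A, and was under 1 RPKM elsewhere. The subconfluent, confluent and 24 h libraries carry one pair of index sequences and the 14 d and 21 d libraries another. In comparisons that cross these sets, stage and library set cannot be told apart. The 24 h replicates stood further from each other than those of other stages, with an SD of the log2 difference between replicates of 0.674, against 0.282 to 0.321 elsewhere. Fewer cells that express a gene and less RNA per cell cannot be told apart in these bulk samples.

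Differences were tested on the counts with edgeR's quasi-likelihood test, fitted to all 10 samples, and a gene was called at an adjusted p-value under 0.05 (Benjamini-Hochberg, over 20808 genes) and a change of more than 2-fold. The words rose and fell are used for called genes. The share of all genes at an unadjusted p under 0.05 was not worked out. Counts at that limit below therefore do not set these genes or any list apart. Over the 5 stages, all 10 genes passed the F test of any difference, from Fosl1 (adjusted p = 4.9e-05) to Fosl2 (adjusted p = 0.036). The same test passed 48.9% of all genes, so passing it does not set these genes apart. Levels below are the deposited RPKM values, which are scaled for gene length and read number but not by the TMM factors used in the tests. Small differences in RPKM between stages can therefore depart from the tested fold changes. Comparisons between genes by RPKM are least sure for Fosl1 and Jund, whose GENCODE exons share 1163 and 877 bases with a gene on the opposite strand.

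**Figure D1:**
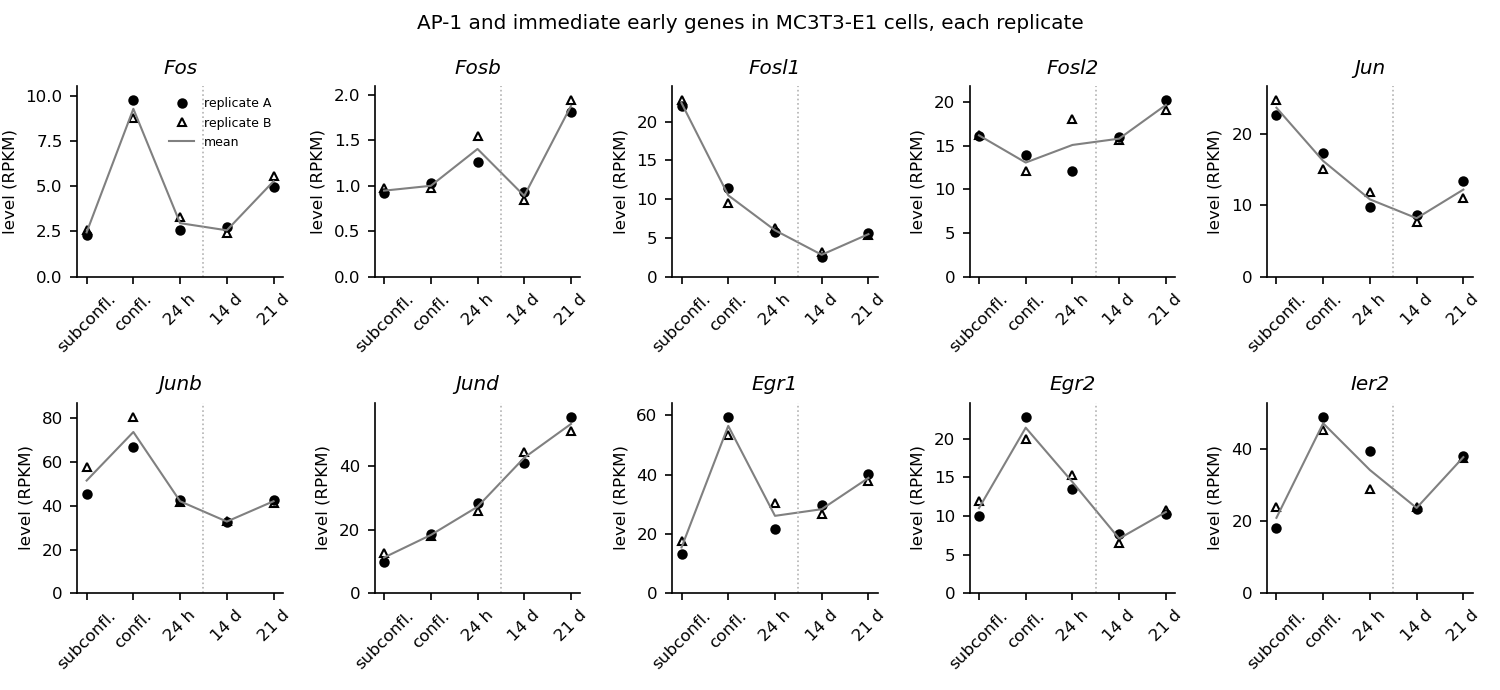
Level of each of the 10 genes in RPKM (y axis, from 0) at the 5 stages (x axis), with replicate A as filled circles, replicate B as open triangles and the mean as a line. The dotted line divides the libraries with one index pair (left) from those with the other (right). Fos, Egr1, Egr2, Ier2 and Junb were highest in both confluent samples, Fosl1 and Jun in both subconfluent samples, and Jund in both 21 d samples.

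Fos, the prototype of its family, was highest in confluent cells. Its level was 2.31 and 2.60 RPKM in the subconfluent samples, 9.76 and 8.80 in the confluent, 2.60 and 3.33 at 24 h, 2.73 and 2.40 at 14 d, and 4.98 and 5.57 at 21 d. Both confluent samples lay above all others, the 21 d samples came next, and the 3 remaining stages overlapped one another. Fos rose 3.72-fold from subconfluent to confluent cells (log2 fold change 1.89, SE 0.15, adjusted p = 0.0014). It fell by 1.56 on the log2 scale (SE 0.14, adjusted p = 0.0025) within the first 24 h of osteogenic medium. It was 1.95-fold higher at 21 d than at 14 d, just under the 2-fold limit (adjusted p = 0.0060).

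Egr1, a serum-inducible zinc finger factor, also had its highest samples in confluent and then in 21 d cells. It stood at 13.25 and 17.66 RPKM in subconfluent cells, 59.62 and 53.37 in confluent cells, 21.81 and 30.45 at 24 h, 29.85 and 26.89 at 14 d, and 40.10 and 37.75 at 21 d. The samples of neighbouring stages did not overlap except those of 24 h and 14 d. Egr1 rose 3.59-fold from subconfluent to confluent cells (log2 1.84, SE 0.18, adjusted p = 0.0028). It fell by 1.03 on the log2 scale by 24 h (SE 0.17, adjusted p = 0.019). Unlike Fos, its level at 24 h and 14 d lay above both subconfluent samples.

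Egr2, which is also needed for myelination, was at 10.02 and 11.99 RPKM in subconfluent cells, 22.84 and 19.98 in confluent cells, 13.53 and 15.23 at 24 h, 7.67 and 6.47 at 14 d, and 10.27 and 10.75 at 21 d. It was 1.91-fold higher in confluent than in subconfluent cells, under the 2-fold limit (log2 0.93, SE 0.12, adjusted p = 0.010). From confluent cells to 14 d it fell 2.61-fold (adjusted p = 0.00032), where Egr1 was 1.71-fold lower and not called (adjusted p = 0.013). The ratio of Egr1 to Egr2 in RPKM was 1.32 and 1.47 in subconfluent samples, 2.61 and 2.67 in confluent samples, 1.61 and 2.00 at 24 h, and 3.51 to 4.16 in the 14 d and 21 d samples.

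Ier2 gave 17.96 and 23.86 RPKM in subconfluent cells, 48.96 and 45.27 in confluent cells, 39.38 and 28.96 at 24 h, 23.46 and 23.83 at 14 d, and 38.08 and 37.38 at 21 d. Both confluent samples were above all others, and the 24 h samples lay on either side of the 21 d samples. Ier2 rose 2.22-fold at confluence (log2 1.15, SE 0.20, adjusted p = 0.027). Without subconfluent replicate A its log2 fold change was 0.96 (adjusted p = 0.21), and the call was lost in 8 of the 10 fits that left out a single library.

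Fosl1, which encodes Fra-1, a Fos protein without the transactivation domain of Fos, had the opposite course at confluence. It was highest in subconfluent cells, at 22.03 and 22.79 RPKM, followed by 11.48 and 9.53 in confluent cells, 5.75 and 6.24 at 24 h, 2.52 and 3.15 at 14 d, and 5.60 and 5.39 at 21 d. No stage overlapped another. Fosl1 fell 2.17-fold from subconfluent to confluent cells (log2 -1.12, SE 0.14, adjusted p = 0.0086). The next steps were under 2-fold, at 1.65-fold lower by 24 h (adjusted p = 0.033) and 1.94-fold lower from 24 h to 14 d (adjusted p = 0.0060). From 14 d to 21 d it was 1.85-fold higher (adjusted p = 0.0092), and at 21 d it was still 3.76-fold below subconfluent cells (log2 -1.91, SE 0.15, adjusted p = 4.5e-05). Its exons share 1163 bases with Ccdc85b on the opposite strand, and the strand used in counting is not given in the sources used here, so reads from the pair cannot be told apart there. Ccdc85b had means of 92.8 RPKM in subconfluent cells, 89.8 in confluent cells, 94.6 at 24 h, 65.2 at 14 d and 65.9 at 21 d. It was thus close at the first 2 stages, between which Fosl1 fell, and lower at the last 2, and its part in the values of Fosl1 was not tested.

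Jun, the main transactivating partner of the family, was at 22.54 and 24.66 RPKM in subconfluent cells, 17.34 and 15.00 in confluent cells, 9.80 and 11.81 at 24 h, 8.63 and 7.71 at 14 d, and 13.40 and 10.94 at 21 d. The levels of 24 h and 21 d overlapped and the other stages did not. No single comparison called Jun. It was 1.79-fold lower at 21 d than in subconfluent cells (log2 -0.84, SE 0.13, adjusted p = 0.0014) and 1.70-fold lower at 14 d than in confluent cells (adjusted p = 0.0043).

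Jund, the subunit known for steady expression, went the other way. Its level was 9.71 and 12.72 RPKM in subconfluent cells, 18.51 and 18.06 in confluent cells, 28.37 and 25.93 at 24 h, 40.76 and 44.33 at 14 d, and 55.43 and 50.85 at 21 d. Both samples of each stage lay above both of the stage before it. Jund rose 5.14-fold from subconfluent cells to 21 d (log2 2.36, SE 0.15, adjusted p = 2.3e-05), the largest change among the 10 genes in the 6 comparisons, and 2.71-fold from confluent cells to 14 d (adjusted p = 0.00053). The single steps were smaller, at 1.60-fold (adjusted p = 0.056), 1.58-fold (adjusted p = 0.047), 1.71-fold (adjusted p = 0.013) and 1.19-fold (adjusted p = 0.38) in order of time. Within the libraries of the first index pair, the mean was 11.2 ± 2.13 RPKM in subconfluent and 27.2 ± 1.72 RPKM in 24 h cells (SD, n = 2), without overlap.

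Junb, an immediate early Jun protein with weaker transactivation than Jun, had the highest RPKM of the 10 genes at the first 3 stages. It stood at 45.21 and 57.92 RPKM in subconfluent cells, 66.76 and 80.81 in confluent cells, 42.46 and 41.72 at 24 h, 32.46 and 33.14 at 14 d, and 42.76 and 41.45 at 21 d. No comparison called it. It was 1.65-fold lower at 24 h than in confluent cells (adjusted p = 0.034) and 1.94-fold lower at 14 d than in confluent cells (adjusted p = 0.0025). At 21 d it differed from subconfluent cells by -0.18 on the log2 scale (SE 0.14, adjusted p = 0.34). The gene shares 173 exonic bases with Prdx2 on the opposite strand, which had 16012 counts on average against 6102 for Junb. Prdx2 had means of 86.2, 92.8, 106, 59.3 and 52.5 RPKM from subconfluent cells to 21 d, lower at 14 d than in confluent cells as Junb was, and its part in the values of Junb was not tested.

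Fosl2, which encodes Fra-2, had the lowest F of the 10 genes over the 5 stages. Its samples ran from 12.10 to 20.22 RPKM, and the 24 h replicates, at 12.10 and 18.08 RPKM, spanned most of that range. The 21 d samples, at 20.22 and 19.12 RPKM, lay above all others. No comparison called it. Its smallest adjusted p was 0.044, for a 1.41-fold higher level at 14 d than in confluent cells.

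Fosb was the lowest of the 10 genes, under 2 RPKM in every sample. It had 0.92 and 0.97 RPKM in subconfluent cells, 1.03 and 0.97 in confluent cells, 1.26 and 1.55 at 24 h, 0.94 and 0.84 at 14 d, and 1.81 and 1.94 at 21 d. Unlike Fos it showed no step at confluence (log2 0.05, SE 0.14, adjusted p = 0.91). Fosb rose 2.01-fold from 14 d to 21 d (SE 0.14 on the log2 scale, adjusted p = 0.0048), barely past the fold limit. It rose 2.15-fold from subconfluent cells to 21 d (adjusted p = 0.00050), a comparison in which Fos rose 2.33-fold (adjusted p = 0.00034) and Egr1 2.73-fold (adjusted p = 0.00040). In that comparison Fosb was under 2-fold with library size alone (log2 0.95) and in limma on log2(RPKM + 1) and log2(RPKM + 0.1) (0.56 and 0.92), and Fos in limma on log2(RPKM + 1) (0.86).

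**Figure D2:**
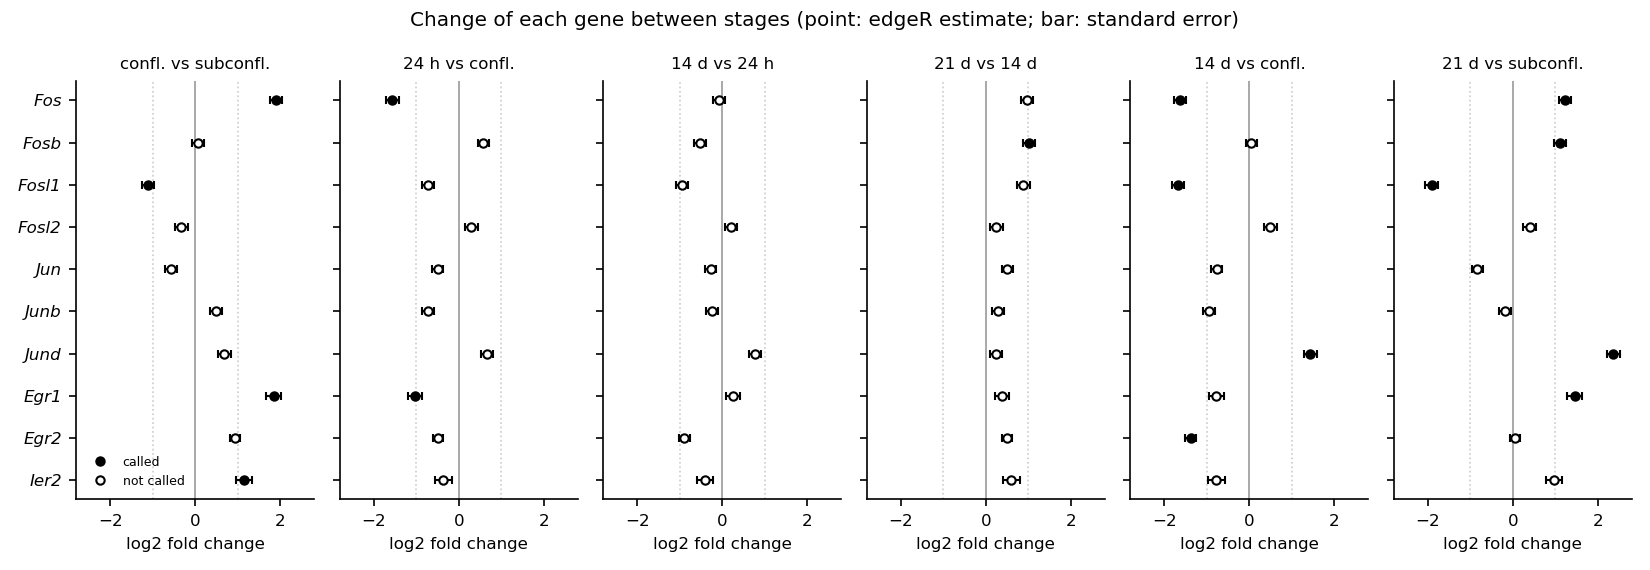
Log2 fold change of the 10 genes (rows) in each of the 6 comparisons (panels), as edgeR estimates with standard errors. Filled points passed an adjusted p of 0.05 and a 2-fold change (dotted lines), and open points did not. At confluence, Fos, Egr1 and Ier2 lie on the right and Fosl1 on the left, and at 21 d against subconfluent cells Jund lies furthest right.

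Of the 4 successive steps, the one to confluence had the most calls. Without the fold limit, at an adjusted p under 0.05, it tied with the step to 24 h, at 5 of the 10 in each. From subconfluent to confluent cells 3 of 10 rose (Fos, Egr1 and Ier2), where 1.0% of all genes rose, and 1 fell (Fosl1), where 0.423% fell. Their median log2 fold change was 0.59, against 2.2e-05 for all genes. Without subconfluent replicate A, 2 were called in place of 4, as Fosl1 and Ier2 were lost, and without subconfluent replicate B or confluent replicate B both were lost as well while Egr2 was gained.

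From confluent cells to 24 h, 2 fell (Fos and Egr1), where 0.365% of all genes fell, and 0 rose, where 1.76% rose. The median of the 10 was -0.49. Jund was the only one of the 10 that was higher at an adjusted p under 0.05. Fitted to these 4 samples alone, none of the 10 was called, and no gene of any kind passed, since the smallest adjusted p was 0.074. Egr1 was lost in 5 fits that left out a single library, namely either confluent sample, 24 h replicate A or either 14 d sample.

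From 24 h to 14 d, edgeR called 0 of 10, where 4.47% of all genes rose and 1.51% fell. At an unadjusted p under 0.05 there were 4, and DESeq2 called 0. These 4, which also had an adjusted p under 0.05, were Jund on the higher side and Fosb, Fosl1 and Egr2 on the lower side. Fosl1 was called without either subconfluent sample or 14 d replicate B, and Egr2 without 14 d replicate A.

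From 14 d to 21 d all 10 were higher, with a median log2 fold change of 0.50 against -0.03 for all genes, but only Fosb rose past 2-fold. In this step 1.52% of all genes rose and 2.45% fell. Fos, Fosl1 and Egr2 were higher at an adjusted p under 0.05 with less than 2-fold. The call of Fosb was lost without 21 d replicate B and without 14 d replicate B, where Fosl1 was called in its place. Fos was called beside it without either subconfluent sample, 14 d replicate A or 21 d replicate A, which made 2.

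From confluent cells to 14 d, Jund rose, where 9.15% of all genes rose, and Fos, Fosl1 and Egr2 fell, where 3.85% fell. The median of the 10 was -0.78. From subconfluent cells to 21 d, Jund, Egr1, Fos and Fosb rose, where 16.3% of all genes rose, and Fosl1 fell, where 11.3% fell. The 6 comparisons share samples, so their calls are not separate evidence, and differences between comparisons were not tested.

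The make-up of the Fos and Jun pools shifted along the course. The shares below are of the summed RPKM of a family and were not tested. Fosl1 made up 53.4 ± 0.14% of the Fos-family RPKM in subconfluent cells, 31.0 ± 0.97% in confluent cells, 23.9 ± 3.60% at 24 h, 12.8 ± 2.09% at 14 d and 17.0 ± 0.24% at 21 d (SD, n = 2). The share of Fosl2 was 38.6 ± 0.54% in subconfluent cells, 71.5 ± 0.84% at 14 d and 60.8 ± 1.63% at 21 d. Its own level differed little between the first 2 of these stages (means of 16.2 and 15.8 RPKM). In CPM with TMM factors Fosl2 was at 60.3 and 61.0 in subconfluent samples and at 67.6 and 67.6 at 14 d. The summed Fos-family level was 41.4 and 42.6 RPKM in subconfluent samples and 22.2 and 22.0 RPKM at 14 d. That sum was 36.3 and 31.4 RPKM in confluent samples, 21.7 and 29.2 at 24 h, and 32.6 and 32.0 at 21 d. The share of Fos was 5.84 ± 0.36% before confluence and 27.4 ± 0.76% at confluence, and averaged 11.6 to 16.3% at the later stages. The ratio of Fosl2 to Fosl1 was 0.731 and 0.714 in subconfluent samples and 6.35 and 4.95 at 14 d, without overlap.

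In the Jun family, Jund held 12.9 ± 0.57% in subconfluent, 16.9 ± 1.54% in confluent, 33.9 ± 1.80% in 24 h, 50.9 ± 1.59% in 14 d and 49.5 ± 0.30% in 21 d cells. Junb took 59.6 ± 1.71% before confluence, 68.0 ± 4.17% at confluence and 39.2 ± 1.30% at 21 d. The share of Jun went from 27.5 ± 2.28% to 11.3 ± 1.0% between the first and the last stage. Jund to Jun stood at 0.431 and 0.516 in subconfluent samples, 1.07 and 1.20 in confluent samples, 2.89 and 2.20 at 24 h, 4.72 and 5.75 at 14 d, and 4.14 and 4.65 at 21 d. The summed Jun-family level was 77.5 and 95.3 RPKM in subconfluent samples, 103 and 114 in confluent samples, 80.6 and 79.5 at 24 h, 81.8 and 85.2 at 14 d, and 112 and 103 at 21 d. The confluent and 21 d samples lay above the rest, and the 24 h and 14 d samples lay within the subconfluent range. Exons of Jund share 877 bases with Gm11175 on the opposite strand, a gene for which no count was used here.

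**Figure D3:**
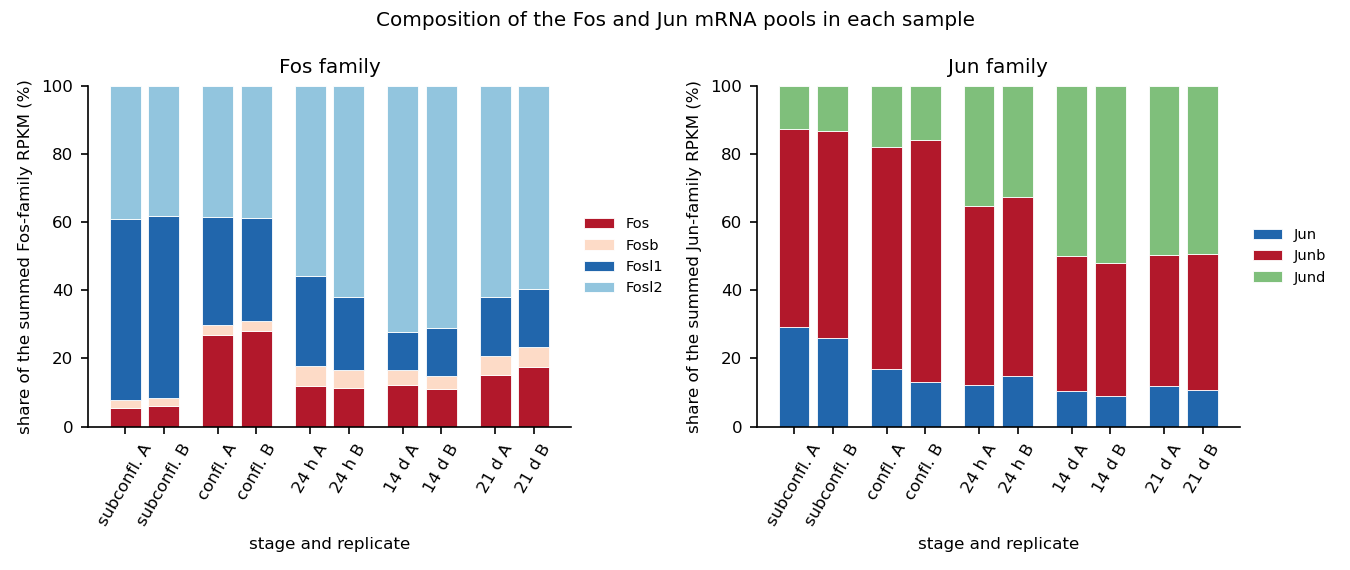
Share in percent of the summed RPKM of the Fos family (left) and of the Jun family (right) held by each gene, one bar per sample adding to the whole. Fosl1 takes over 50% of the Fos pool in both subconfluent samples and Fosl2 most of it from 24 h on. Jund grows from 12.9% of the Jun pool on average to 49.5% at 21 d.

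Other bZIP proteins can replace Fos or Jun proteins in the dimer. Of 13 such partners 10 were tested. At confluence 1 rose and 1 fell (1.0% and 0.423% of all genes), and from 14 d to 21 d 3 rose and 0 fell (1.52% and 2.45% of all genes), with a median log2 of 0.59 in the latter. Atf3, a stress-induced factor, gave 1.05 and 1.16 RPKM at 14 d and 5.02 and 4.74 RPKM at 21 d (log2 2.06, SE 0.15, adjusted p = 0.00046). Jdp2, a repressor of AP-1, had 16.24 and 15.21 RPKM at 14 d and 32.62 and 35.05 RPKM at 21 d (log2 1.03, SE 0.09, adjusted p = 0.00076). Maff, a small Maf protein, fell from 8.83 ± 0.97 RPKM in subconfluent to 3.30 ± 0.40 RPKM in confluent cells (SD, n = 2, log2 -1.44, adjusted p = 0.0031), and rose from 14 d to 21 d (log2 1.05, adjusted p = 0.0045). From confluent cells to 14 d 1 rose, where 9.15% of all genes did, Maf (log2 1.16, adjusted p = 0.00031). From subconfluent cells to 21 d 2 rose, Atf3 and Maf, where 16.3% of all genes did, and edgeR called 0 in the 2 remaining comparisons, where 2 (24 h against confluent) and 5 (14 d against 24 h) had an unadjusted p under 0.05.

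The 40 further immediate early genes did not move as a block. At confluence 3 rose and 2 fell (median log2 0.05, with 1.0% and 0.423% of all genes), and the rises included Btg2, an antiproliferative gene, from 6.47 and 6.27 RPKM to 19.10 and 19.49 RPKM (log2 1.57, SE 0.08, adjusted p = 0.00034). Klf2, a Krüppel-like factor that responds to fluid flow, rose at each of the first 3 steps, with means of 6.92, 15.2, 33.8 and 75.0 RPKM from subconfluent cells to 14 d. Ccn2, a matricellular protein gene, fell at confluence from 29.2 ± 2.74 to 13.8 ± 0.69 RPKM (SD, n = 2, adjusted p = 0.0026), and Klf10 fell with it (log2 -1.42, adjusted p = 0.0026).

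By 24 h 2 of the 40 rose, Sgk1 and Klf2 (1.76% of all genes), and edgeR called 0 lower, while 21 had an unadjusted p under 0.05 in either direction. Chosen after their values were seen, 4 genes had a log2 fold change about as low as Egr1 without being called, namely Dusp4 (-1.21), Ptgs2 (-1.02), Nfkbiz (-0.99) and Socs3 (-0.99). From 24 h to 14 d 2 rose, Klf2 and Klf4 (4.47% of all genes), and 5 fell (1.51% of all genes), among them Plk3, a stress kinase, from 4.32 and 4.75 to 1.88 and 1.23 RPKM (adjusted p = 0.0038). From 14 d to 21 d 1 rose (1.52% of all genes), Ptgs2, the gene of cyclooxygenase 2, from 0.39 and 0.39 to 1.17 and 1.81 RPKM (log2 1.87, SE 0.33, adjusted p = 0.013). From confluent cells to 14 d 3 rose and 3 fell (9.15% and 3.85% of all genes). From subconfluent cells to 21 d 9 of 40 rose and 4 fell, near the 16.3% and 11.3% of all genes, including Dusp1, a phosphatase that switches off MAP kinases (log2 2.10, adjusted p = 2.2e-05), and Plk2 (log2 2.05, adjusted p = 8.3e-06).

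**Figure D4:**
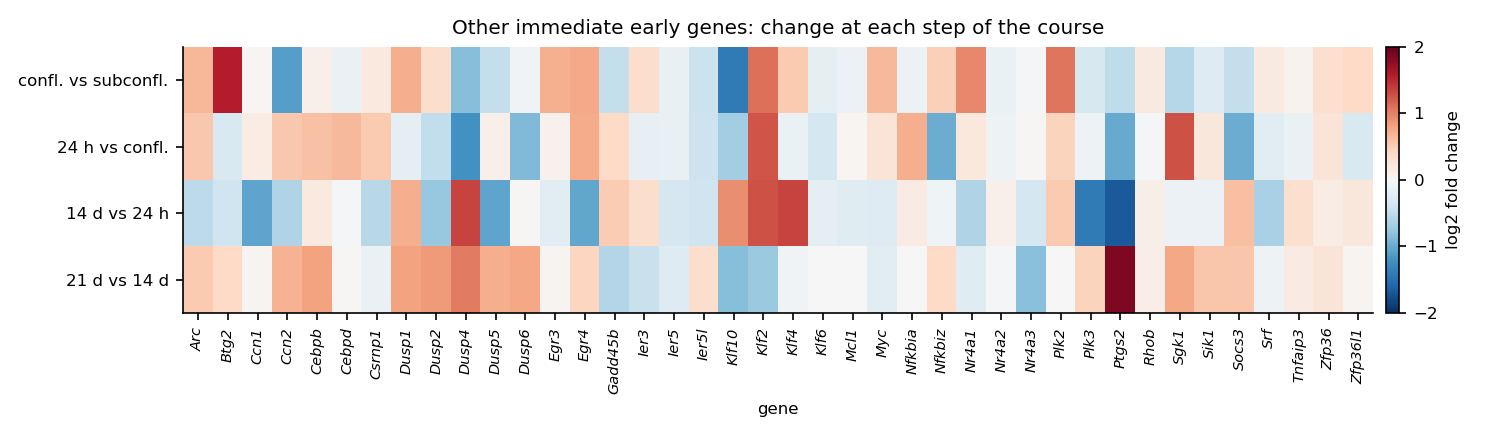
Log2 fold change of the 40 other immediate early genes (columns) at each of the 4 successive steps (rows), as edgeR estimates, red for higher and blue for lower in the later stage. Each row holds both colours, Klf2 is red in the first 3 steps, and Ptgs2 has the strongest colours of the lower 2 rows.

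Kinases, serum response factor partners and Egr corepressors upstream of these genes gave few calls. Of 16 tested, edgeR called 0 in 5 of the comparisons, where 3 to 6 had an unadjusted p under 0.05. From subconfluent cells to 21 d 3 fell, where 11.3% of all genes did, with Elk3, a ternary complex factor, at 23.7 ± 0.50 and 8.68 ± 0.44 RPKM (SD, n = 2, log2 -1.33, adjusted p = 2.8e-05), and Rps6ka1 and Mrtfa beside it. Mrtfa, at an adjusted p of 0.045, had replicates far apart at 24 h, at 4.40 and 13.99 RPKM.

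Of 19 genes reported as AP-1 targets in bone or fibroblast cells 17 were tested, and they went in both directions. Hbegf, a growth factor gene, fell at confluence from 7.78 and 8.61 to 2.86 and 2.84 RPKM (log2 -1.55, SE 0.15, adjusted p = 0.0028), the only call of the list there (0.423% of all genes fell). At 24 h 2 fell (0.365% of all genes), including Lif (log2 -1.92, adjusted p = 0.0056). Mmp13, the collagenase of hypertrophic cartilage and bone, rose from 9.91 and 11.92 RPKM at 24 h to 66.22 and 78.65 RPKM at 14 d (log2 2.86, SE 0.15, adjusted p = 8.1e-05), one of 2 rises against 1 fall (4.47% and 1.51% of all genes). From 14 d to 21 d 3 rose and 0 fell (1.52% and 2.45% of all genes), namely Spp1 (osteopontin), Vegfa and Hmox1. Spp1 stood at 284 and 283 RPKM at 14 d and at 1509 and 968 RPKM at 21 d (log2 2.05, SE 0.20, adjusted p = 0.0010). From confluent cells to 14 d 1 rose and 4 fell (9.15% and 3.85% of all genes), and from subconfluent cells to 21 d 3 rose and 4 fell (16.3% and 11.3% of all genes).

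Heat shock genes, which answer to temperature and handling, were read beside these results. Of 10 tested, edgeR called 0 at confluence, where Fos, Egr1 and Ier2 rose, and 3 had an unadjusted p under 0.05. By 24 h 2 rose, where 1.76% of all genes did, Hspb1 (log2 1.64, SE 0.28, adjusted p = 0.020) and Hspa1a (log2 1.23, SE 0.25, adjusted p = 0.038), where Fos and Egr1 fell. From 24 h to 14 d 1 fell (1.51% of all genes), while 0 of the 10 were higher even without a limit and the median log2 was -0.60. In that step 8 had an unadjusted p under 0.05. From 14 d to 21 d 2 rose (1.52% of all genes), Hspb1 (log2 1.74, adjusted p = 0.0084) and Hsph1 (log2 1.10, adjusted p = 0.0010), beside Fosb and Atf3. In each of the 2 longer comparisons 1 rose and 1 fell, with 9.15% and 3.85% of all genes from confluent cells to 14 d and 16.3% and 11.3% from subconfluent cells to 21 d. At an unadjusted p under 0.05 there were 8 and 9 of the 10, in that order. Their part in these results was not tested.

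As a description, genes were ranked by the Pearson correlation of log2 CPM with Fos and with Fosl1 over the 10 samples, among 11975 genes averaging 5 CPM or more. The points share stages, index pairs and depths. Nearest to Fos were Wdr91 (r = 0.961), Nbeal2 (r = 0.929), Fam160a2 (r = 0.868), Usp30 (r = 0.864) and Sesn2 (r = 0.858). Their changes were smaller than that of Fos, with Wdr91 at a mean of 7.96 RPKM in subconfluent and 11.5 RPKM in confluent cells. Nearest to Fosl1 were Slc20a1 (r = 0.985), Tes (r = 0.984), Nus1 (r = 0.980), Cav2 (r = 0.977) and Srxn1 (r = 0.977). Slc20a1, a sodium-phosphate cotransporter gene, had means of 18.9, 11.2, 7.94, 3.86 and 7.08 RPKM from subconfluent cells to 21 d. Among the 10 genes themselves, the highest value was that of Fosl1 with Jun (r = 0.960), followed by Fos with Egr1 (r = 0.885), and the lowest that of Fosl1 with Jund (r = -0.883).

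Positions are given here from GENCODE vM21 on GRCm38. Fos is at chr12:85473890-85477273 (plus strand), Fosb at chr7:19302696-19310051 (minus), Fosl1 at chr19:5447547-5455946 (plus) and Fosl2 at chr5:32135801-32157842 (plus). Jun is at chr4:95049034-95052222 (minus) and Egr2 at chr10:67535475-67542188 (plus). Chromosome 8 holds Junb at chr8:84974484-84978718 (minus), Jund at chr8:70698949-70700616 (plus) and Ier2 at chr8:84661331-84662852 (minus), and Egr1 is at chr18:34859823-34864984 (plus). All 10 are protein coding.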

How the data were processed

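The sequencing was of 51 bp paired-end reads. The authors deposited whole-number read counts per Ensembl gene, without normalization, and RPKM values, which are scaled by gene length and read number. The submitters' processing notes name mm10, TopHat2 2.0.9, FastQC and R 3.0.1. The counting tool and its strand setting are not given in the sources used here. For 14 d replicate A and 21 d replicate B, sequenced in 2 lanes each, the merged column was used. Counts were tested in R 4.3.3 with edgeR 4.0.16 (filterByExpr, TMM, a quasi-likelihood fit with 5 groups over 10 samples). Standard errors are the absolute log2 fold change over the square root of F. The method was tested on simulated data. Alternatives were other scalings, filters and thresholds, DESeq2 1.42.0, limma 3.58.1 on log2(RPKM + 1) and log2(RPKM + 0.1), fits of 2 groups, without 24 h samples, with a replicate block, without each replicate, and, chosen after seeing the data, the sum of the 2 lanes. Shares were computed from RPKM.

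The genes and lists were chosen with earlier results of these data known. All 10 genes are named. From the lists for AP-1 partners, immediate early genes, upstream regulators, AP-1 targets, heat shock and cell types, at most 4 called genes per comparison, the largest in fold with a mean of at least 1 RPKM, could be named, and markers are named to describe the samples. The 5 genes most like Fos and Fosl1 were taken by correlation. Outside this rule, Ccdc85b, Prdx2 and Gm11175 are named as overlapping genes, and Dusp4, Nfkbiz and Socs3 were chosen after their values were seen.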

Additional observations from a re-analysis of the deposited data

How the results depend on the processing

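No called gene changed direction under any alternative run. At an adjusted p under 0.05 with any fold change, 5 of the 10 genes passed at confluence and 5 from confluent cells to 24 h. There were 4 from 24 h to 14 d and 4 from 14 d to 21 d. From confluent cells to 14 d 9 passed, and from subconfluent cells to 21 d 7. The share of all genes passing that limit was not worked out, so these counts do not set the 10 genes apart. With library size alone, 1 was called from 24 h to 14 d (Fosl1), 2 from 14 d to 21 d (Fos beside Fosb) and 7 from confluent cells to 14 d (Egr1, Ier2 and Junb added). In the last of these that scaling shifted the median over all genes to -0.20 on the log2 scale. It shifted it to -0.13 at 24 h against confluent and to -0.12 at 21 d against subconfluent cells, and upper-quartile factors shifted the latter to 0.17. Without a filter 1 was called from 24 h to 14 d and 2 from 14 d to 21 d, and with upper-quartile factors 2 in the latter. From 14 d to 21 d DESeq2 called 0, limma on log2(RPKM + 1) 0, limma on log2(RPKM + 0.1) 2, and a fit of those 2 groups 2. From 24 h to 14 d limma on log2(RPKM + 0.1) called 2, and from subconfluent cells to 21 d limma on log2(RPKM + 1) called 3. A fit of 2 groups called 0 from confluent cells to 24 h. The cause of these shifts was not tested. Without 1 replicate, the count ran from 2 to 4 at confluence, 1 to 2 at 24 h, 0 to 1 from 24 h to 14 d and 0 to 2 from 14 d to 21 d. The F test over 5 stages passed 9 or 10 genes under the alternatives it was run for, which leave out the fits of 2 groups and without 24 h samples, and Fosl2 was the one lost.

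Samples with the same replicate letter did not deviate together, with 10 correlations between stages of -0.184 to 0.0995, so the letters were not read as pairs. With the letter as a replicate block, 3, 2, 0, 1, 4 and 5 genes were called in the order of the comparisons above, and 9 passed the F test, with Ier2 at confluence (adjusted p = 0.065) and Fosl2 in the F test lost. Signs of uncalled values changed for Fos and Fosl2 from 24 h to 14 d, for Fosb from confluent cells to 14 d and for Egr2 from subconfluent cells to 21 d. Fosb, with 104 counts in its lowest sample, had the least depth.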

Other observations

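In the 2 libraries sequenced in 2 lanes, the CPM of the 10 genes in the first lane was 0.911 to 1.43 times that in the second. The highest ratio was that of Fosl1 in 21 d replicate B, which had 78 counts in the second lane. Counted without length correction, Jund made up 14.1% of Jun-family counts in subconfluent cells and 52.9% at 21 d on average, and Fosl1 26.8% and 6.51% of Fos-family counts. Fosl2 took 66.6% of Fos-family counts in subconfluent cells, above Fosl1, where the order in RPKM was the reverse.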
